A study of Mus musculus with 16 samples.

Results

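The enzymes that write, copy and remove methyl groups on DNA were followed in 16 RNA-seq libraries of mouse LSK cells, the lineage-negative, Sca1-positive, Kit-positive marrow fraction that holds blood stem cells and early progenitors. The 9 genes were chosen by name, not by their values: Dnmt1, Dnmt3a, Dnmt3b, Uhrf1, Uhrf2, Tet1, Tet2, Tet3 and Hells. Each matched 1 of the 30141 mouse gene rows of the count tables, and all 9 passed the filter on low counts, with between 554 and 20387 reads per library.

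The 4 groups cross a DNMT3A genotype with a drug. WT cells carried mouse DNMT3A only and were treated with NaCl (4 libraries) or azacitidine (3 libraries). R882H cells carried mouse WT DNMT3A together with human DNMT3A bearing the R882H change, and were also treated with NaCl (4 libraries) or azacitidine (5 libraries). The human allele lay behind a Lox-Stop-Lox cassette in C57BL/6N-derived embryonic stem cells. It was switched on by Mx1-Cre, a Cre recombinase driven by an interferon-responsive promoter and induced with poly(I:C), so excision is not limited to blood cells. Donor marrow, taken 4 weeks after poly(I:C), was mixed 1:1 with marrow of CD45.1 WT donors and transplanted into CD45.1 recipients. Treatment began 2 weeks later and lasted 2 weeks, with 2.5 mg per kg azacitidine or 0.9% NaCl. The labels do not say whether CD45.1 competitor cells were removed in the sort, nor whether the libraries came from separate recipients, so the p-values measure the spread between these libraries only. No ages are given. Reads of the human transcript could reach mouse Dnmt3a, and how such reads were counted is not given in the sources used here, so the Dnmt3a count is not a measure of the mutant allele.

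In mammals, DNMT3A and DNMT3B place methyl groups on unmethylated CpG sites, and DNMT1 copies the pattern to the new strand after DNA replication. UHRF1 recognises hemimethylated CpG and brings DNMT1 to it, UHRF2 is its paralogue, and HELLS is a chromatin remodeller that opens nucleosomal DNA to methylation. The TET enzymes oxidise 5-methylcytosine, the step that starts active demethylation. DNMT3A and TET2 are among the genes most often mutated in clonal haematopoiesis. Azacitidine is a cytidine analogue that, once built into DNA, traps DNA methyltransferases and leads to loss of DNMT1 protein, an effect on protein that RNA counts do not measure.

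The start regions of 5 genes are shown here: Dnmt1, Uhrf1 and Hells, which act together at replication, and Dnmt3a and Tet1, 1 of 3 pairs of members whose RNA varied together by both measures of correlation described further on. RefSeq windows of 300 bases, 250 before to 50 after a start site (build GRCm38.p6, strand of the gene, 5′ to 3′), were found for all 9 genes at 14 start sites, and where a gene has several, the window with the most CpG is shown. Capitals mark matches to the E2F motif TTTNNCGC, searched on both strands. E2F factors drive genes of DNA replication. Dnmt1 (chr9:20952574-20952873, minus strand, 33 CpG) and Uhrf1 (chr17:56304063-56304362, plus strand, 33 CpG) are the maintenance pair, and Hells (chr19:38930740-38931039, plus strand, 34 CpG) is the remodeller.
Dnmt1: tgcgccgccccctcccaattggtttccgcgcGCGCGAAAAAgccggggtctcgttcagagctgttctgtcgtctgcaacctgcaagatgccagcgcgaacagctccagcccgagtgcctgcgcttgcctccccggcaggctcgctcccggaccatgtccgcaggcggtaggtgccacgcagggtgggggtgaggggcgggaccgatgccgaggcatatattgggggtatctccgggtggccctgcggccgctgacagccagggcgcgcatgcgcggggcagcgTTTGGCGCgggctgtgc
Uhrf1: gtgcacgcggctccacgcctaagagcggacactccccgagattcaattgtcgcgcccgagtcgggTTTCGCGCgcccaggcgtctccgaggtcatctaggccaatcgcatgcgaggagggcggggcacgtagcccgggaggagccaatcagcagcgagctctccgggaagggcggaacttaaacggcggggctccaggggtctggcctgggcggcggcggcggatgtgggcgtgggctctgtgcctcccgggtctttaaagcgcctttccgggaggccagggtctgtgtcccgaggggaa
Hells: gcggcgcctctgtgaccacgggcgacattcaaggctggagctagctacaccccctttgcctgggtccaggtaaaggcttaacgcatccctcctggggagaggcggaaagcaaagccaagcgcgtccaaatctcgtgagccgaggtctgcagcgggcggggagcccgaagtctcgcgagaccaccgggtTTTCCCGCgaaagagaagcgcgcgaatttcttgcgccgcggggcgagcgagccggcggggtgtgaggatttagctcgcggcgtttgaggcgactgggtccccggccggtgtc
Dnmt3a (chr12:3806910-3807209, plus strand, 47 CpG) and Tet1 (chr10:62887275-62887574, minus strand, 17 CpG) are the pair that varied together.
Dnmt3a: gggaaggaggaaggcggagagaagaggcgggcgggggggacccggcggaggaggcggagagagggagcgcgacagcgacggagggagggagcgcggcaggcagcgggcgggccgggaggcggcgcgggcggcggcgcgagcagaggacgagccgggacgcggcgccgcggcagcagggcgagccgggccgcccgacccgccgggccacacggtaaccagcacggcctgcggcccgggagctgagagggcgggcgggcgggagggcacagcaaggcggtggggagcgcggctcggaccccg
Tet1: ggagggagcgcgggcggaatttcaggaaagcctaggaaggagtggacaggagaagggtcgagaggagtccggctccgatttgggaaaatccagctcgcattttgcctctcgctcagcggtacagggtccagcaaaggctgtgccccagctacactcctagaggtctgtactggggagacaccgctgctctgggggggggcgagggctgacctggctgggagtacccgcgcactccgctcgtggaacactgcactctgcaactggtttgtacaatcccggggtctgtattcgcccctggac
The Dnmt1 window held 3 E2F matches, the first 2 of which overlap, and the Uhrf1 and Hells windows held 1 each. These 3 of the 9 genes had a match in the window with the most CpG, and 5.17% of the 32851 RefSeq windows hold one. The windows of Dnmt3a, Dnmt3b, Uhrf2, Tet1, Tet2 and Tet3 held none of these letters. All 9 windows held the GC box GGGCGG on either strand, as did 35.7% of all windows. The median window of the table holds 7 CpG. The 9 windows, chosen for the most CpG of their gene, ranged from 17 CpG (Tet1, percentile 68.6 of all windows) to 57 CpG (Tet2, percentile 99.8). The shares over all windows are not for windows chosen by CpG, so they are not like for like. A match describes the letters only.

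The libraries hold between 35860445 and 56012766 counts, of which 2.97% (WT NaCl 3) to 10.1% (WT azacitidine 1) lie in repeat families. Kit, Ly6a and Cd34 were detected in all 16 libraries. Surface markers that the sort should remove were mostly low, with Cd8a at 0 in 11 libraries and Ly6g at 0 in 9, but transcripts of other blood cells varied widely. R882H NaCl 1 carried T cell transcripts (Cd3d 22.3 and Cd3e 24.2 CPM, counts scaled to library size by the TMM method, against medians of 0.451 and 0.447). Both R882H NaCl 1 and 2 carried erythroid transcripts: the mean log2 CPM of 10 erythroid genes was 7.12 and 7.34 there and at most 5.66 in the other 14 libraries, with Hba-a1 (alpha globin) highest in library 1 (211 CPM) and Klf1 (erythroid transcription factor) in library 2 (777 CPM, median 57.8). R882H NaCl 2 also had the highest S phase and mitotic sums. The 9 mature B and plasma cell genes, mostly immunoglobulin by level, summed to between 952 (WT azacitidine 1) and 48168 CPM (R882H azacitidine 4), with WT NaCl 3 next at 43719. Among 12 neutrophil and monocyte genes, those of late granules were highest in R882H azacitidine 2 (Ngp 218 CPM, median 2.95), while those of early granules were highest in WT azacitidine 2 (Mpo 5814 CPM, median 1609), which had the highest sum of the list (9709 CPM) where R882H azacitidine 2 had 2114. WT azacitidine 1 had the lowest summed S phase CPM (3065) and the highest level of long genes: its median deviation from the 16-library mean was 0.38 (log2) over the 1215 tested genes of 10 kb or more, and lay between -0.24 and 0.18 in the other libraries. In bulk libraries, fewer cells of a type and less RNA per cell cannot be told apart.

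Per unit length, the maintenance pair was the most abundant and the TET enzymes the least. Mean FPKM (fragments scaled for gene length and library size, as deposited by the authors) over the 16 libraries was 49.2 for Uhrf1 and 41.7 for Dnmt1. It was 21.7 for Dnmt3b, 13.5 for Uhrf2, 10.2 for Hells and 5.53 for Dnmt3a. It was 2.31 for Tet3, 1.92 for Tet2 and 1.79 for Tet1. Uhrf1 ranked highest in 14 libraries and Dnmt1 in the other 2, and Hells held rank 5 in all 16. In the WT NaCl group, FPKM was 52.3 ± 8.2 for Uhrf1 and 41.6 ± 12.7 for Dnmt1 (SD, n = 4), and their ranges overlapped. Dnmt3b followed at 23.0 ± 3.8 and did not overlap with Dnmt1 or with Uhrf2 at 12.9 ± 0.68. Uhrf2 overlapped with Hells at 11.0 ± 1.3, and Hells stood apart from Dnmt3a at 5.54 ± 0.53. The 3 TET genes, at 2.01 ± 0.66 (Tet3), 1.77 ± 0.42 (Tet1) and 1.74 ± 0.38 (Tet2), overlapped with each other in every group.

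The order was the same from Uhrf1 down to Dnmt3a in the other groups, but neighbours overlapped in different places. Under azacitidine, WT Uhrf1 (43.8 ± 5.2 FPKM, n = 3) and Dnmt1 (32.9 ± 2.4) did not overlap. In R882H NaCl, each gene from Uhrf1 to Uhrf2 overlapped with the next one down the order, with Uhrf1 at 46.7 ± 14.4, Dnmt1 at 41.2 ± 18.1 and Dnmt3b at 19.2 ± 8.2 (n = 4). In R882H azacitidine, Uhrf1 at 51.9 ± 9.7, Dnmt1 at 47.4 ± 15.0 and Dnmt3b at 24.4 ± 1.0 (n = 5) overlapped with their neighbours in that order, and Dnmt3b stood above Uhrf2 at 14.2 ± 1.0. Of the 2 de novo enzymes, Dnmt3b was above Dnmt3a in FPKM in 16 of 16 libraries, with a ratio of 2.24 to 5.13 and a median of 4.22. The Dnmt1 to Dnmt3a FPKM ratio ran from 3.24 to 12.5. Both ratios rest on the deposited exon lengths (16642 bases for Dnmt3a, 5106 for Dnmt3b and 7377 for Dnmt1), and which transcripts the cells used was not examined. Without scaling for length, mean CPM was 116 for Dnmt3b and 96.6 for Dnmt3a. Dnmt3a had the higher CPM in WT azacitidine 1 and in R882H NaCl 1 and 2.

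**Figure D1:**
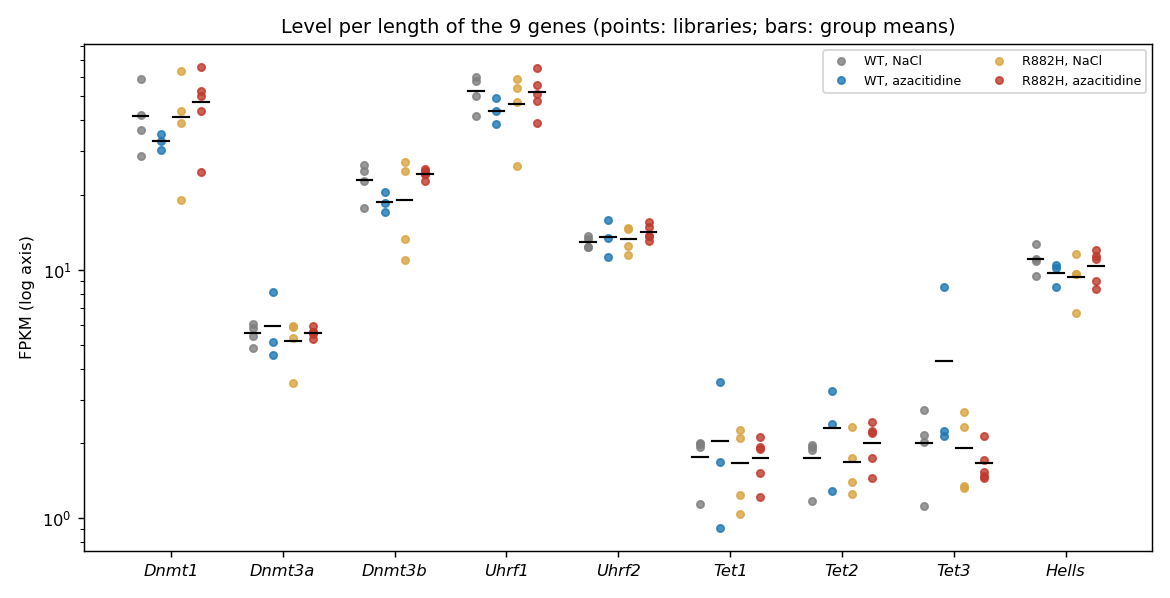
FPKM of the 9 genes on a log axis, 1 point per library, coloured by group, with bars at the group means. Uhrf1 and Dnmt1 lie highest (means of 49.2 and 41.7 over all libraries) and the 3 TET genes lie lowest.

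The genes differed in how steady they were. The SD of log2 CPM over the 16 libraries was 0.13 for Uhrf2, at percentile 1.53 of the 18341 tested genes, 0.22 for Hells and 0.25 for Dnmt3a. It was 0.30 for Uhrf1, 0.35 for Dnmt3b, 0.42 for Tet2, 0.47 for Dnmt1, 0.51 for Tet1 and 0.69 for Tet3. The median over all tested genes was 0.44. The highest library exceeded the lowest 1.42-fold for Uhrf2, 3.25-fold for Dnmt1 and 7.95-fold for Tet3.

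No member passed the threshold in any comparison. The questions were how R882H and WT cells respond to azacitidine, whether the responses differ, and how the genotypes differ under each treatment. In edgeR's quasi-likelihood test over 18341 genes, adjusted p over the 54 tests (9 genes, 6 comparisons) ran from 0.533 to 0.999. DESeq2 and limma-voom also called 0 of 9 in each comparison. Few genes of any kind were called: 0.00545% of tested genes for azacitidine in R882H, 0% for azacitidine in WT, 0% for the difference between these responses, 0.00545% for R882H against WT under NaCl, 0.00545% for R882H against WT under azacitidine and 0.0218% for the azacitidine effect averaged over genotypes. The 1 gene called between genotypes under NaCl became 0 with library number as a block among the 8 NaCl libraries. At an unadjusted p under 0.05, the members counted 0, 1, 1, 0, 1 and 0 of 9 in these comparisons, in that order. The shares of all tested genes were 6.69%, 6.02%, 6.07%, 5.59%, 9.34% and 6.85%. The member behind each count of 1 was Tet3. Its position rests on 1 library, as given with its values.

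**Figure D2:**
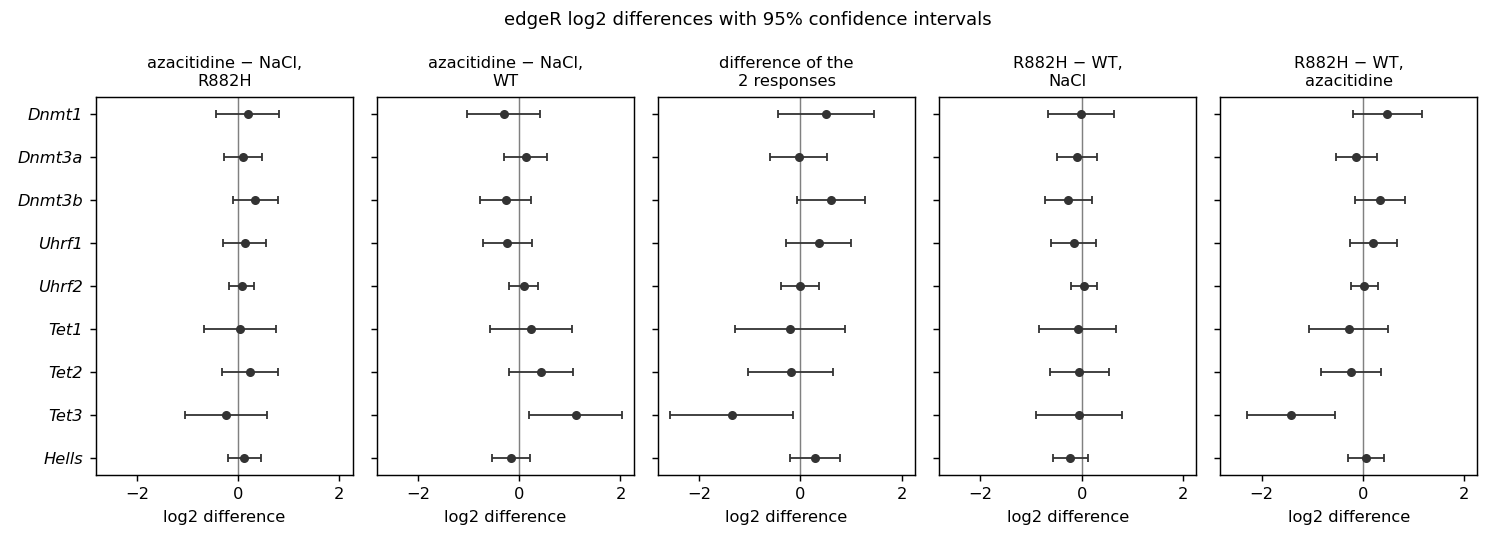
Log2 difference of each gene in 5 comparisons from edgeR, with 95% confidence intervals, where the third panel is the R882H response minus the WT response. All intervals include 0 except those of Tet3 in WT azacitidine (1.12), in the difference of responses (-1.36) and between genotypes under azacitidine (-1.41), each of which rests on WT azacitidine 1.

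Dnmt1 (ENSMUSG00000004099, chr9:20907209-20959888 of GRCm38, minus strand), the maintenance methyltransferase, had 284, 229, 444 and 325 CPM in WT NaCl 1 to 4. It had 241, 259 and 274 CPM in WT azacitidine 1 to 3. R882H NaCl 1 to 4 had 155, 309, 480 and 330 CPM, and R882H azacitidine 1 to 5 had 379, 189, 337, 401 and 503 CPM. The WT azacitidine libraries were close together, and the other groups each spanned more than their distance from any other group. The group means were 320 ± 91 CPM (SD, n = 4), 258 ± 17 (n = 3), 318 ± 133 (n = 4) and 362 ± 114 (n = 5) in that order. Between genotypes under azacitidine the log2 difference was 0.49 (SE 0.32, 95% interval -0.20 to 1.18, edgeR adjusted p = 0.590), with overlapping ranges. The R882H response exceeded the WT response by 0.50 (SE 0.45, interval -0.45 to 1.45, adjusted p = 0.796). It was 0.27 without R882H NaCl 1, 0.30 without WT NaCl 3 and 0.77 without R882H NaCl 3.

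Uhrf1 (ENSMUSG00000001228, chr17:56303321-56323486, plus strand), which guides DNMT1 to newly replicated DNA, had 256, 192, 261 and 223 CPM in WT NaCl 1 to 4 and 176, 222 and 196 CPM in WT azacitidine 1 to 3. It had 123, 248, 257 and 208 CPM in R882H NaCl 1 to 4 and 224, 172, 215, 245 and 289 CPM in R882H azacitidine 1 to 5. The lowest library, R882H NaCl 1, was also the lowest for Dnmt1 and Hells. In WT the azacitidine response was -0.23 (log2, SE 0.23, interval -0.72 to 0.25, edgeR adjusted p = 0.913). The difference between responses was 0.37 (SE 0.30, interval -0.28 to 1.01, adjusted p = 0.782), and 0.18 without R882H NaCl 1.

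Uhrf2 (ENSMUSG00000024817, chr19:30030513-30093722, plus strand) lay between 103 and 146 CPM in all 16 libraries. As a fold (1.42) this was the narrowest range of the 9 genes. Its azacitidine response in R882H was 0.07 (log2, interval -0.18 to 0.32), and the interval for R882H against WT under NaCl was also narrow, as the plot of differences shows.

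Hells (ENSMUSG00000025001, chr19:38930915-38971051, plus strand) had 95.5, 84.4, 81.5 and 71.0 CPM in WT NaCl 1 to 4 and 65.9, 77.7 and 79.4 CPM in WT azacitidine 1 to 3. It had 52.8, 74.4, 85.7 and 71.3 CPM in R882H NaCl 1 to 4 and 61.8, 82.8, 67.9, 84.2 and 90.4 CPM in R882H azacitidine 1 to 5. All group ranges overlapped. Under NaCl the R882H cells were at -0.23 against WT (log2, SE 0.16, interval -0.57 to 0.12, edgeR adjusted p = 0.971), and at -0.10 without R882H NaCl 1. The difference between responses was 0.28 (SE 0.23, interval -0.21 to 0.78, adjusted p = 0.781), and 0.17 without that library.

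Dnmt3a (ENSMUSG00000020661, chr12:3806007-3914443, plus strand), the mouse copy of the gene that is mutated in the human allele, had 106, 97.2, 82.9 and 101 CPM in WT NaCl 1 to 4 and 146, 80.2 and 90.0 CPM in WT azacitidine 1 to 3. It had 108, 62.9, 91.2 and 100.04 CPM in R882H NaCl 1 to 4 and 95.4, 94.8, 103, 96.8 and 90.8 CPM in R882H azacitidine 1 to 5. The R882H libraries lay within the WT range except R882H NaCl 2 with 62.9 CPM, 1 of the 2 libraries rich in erythroid transcripts. The other, R882H NaCl 1, had 108 CPM. No difference in Dnmt3a exceeded its standard error. Its azacitidine response was 0.09 in R882H (log2, interval -0.29 to 0.46) and 0.12 in WT (interval -0.30 to 0.55). The exons share 133 bases with Dnmt3aos on the opposite strand, which reached at most 0.164 CPM.

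Dnmt3b (ENSMUSG00000027478, chr2:153649450-153687730, plus strand), the second de novo enzyme, had 121, 97.9, 130 and 141 CPM in WT NaCl 1 to 4. It had 113, 92.8 and 100.2 CPM in WT azacitidine 1 to 3. R882H NaCl 1 to 4 had 74.3, 60.3, 143 and 131 CPM, a split in which the first pair lay below every other library of the study. R882H azacitidine 1 to 5 had 131, 121, 137, 128 and 129 CPM and was the tightest group, at 129 ± 5.7 CPM (SD, n = 5). In R882H the azacitidine response was 0.34 (log2, SE 0.21, interval -0.11 to 0.78, edgeR adjusted p = 0.795). It was 0.91 among libraries numbered 1 and 2 and -0.08 among those numbered 3 and above, and moved with each R882H NaCl library left out: 0.21 without library 1, 0.15 without library 2, 0.54 without library 3 and 0.48 without library 4. In WT the response was -0.27 (SE 0.24, adjusted p = 0.905), and the difference between responses was 0.60 (SE 0.32, interval -0.07 to 1.28, adjusted p = 0.763).

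Between genotypes, Dnmt3b was at -0.26 in R882H under NaCl (log2, SE 0.22, edgeR adjusted p = 0.998), and 0.02 among libraries numbered 3 and above. Without R882H NaCl 1, 2, 3 or 4 in turn it was -0.13, -0.08, -0.47 and -0.40. Under azacitidine it was at 0.34 (SE 0.23, interval -0.14 to 0.83, adjusted p = 0.591). All 5 R882H azacitidine libraries lay above all 3 WT azacitidine libraries, 121 to 137 against 92.8 to 113 CPM. Groups that do not overlap were found for 10.7% of tested genes in this comparison, and for 2 of the 9 members, Dnmt3b and Tet3. In the other 3 comparisons between pairs of groups no member had groups apart. The shares of all genes were 1.57% for azacitidine in R882H, 5.73% for azacitidine in WT and 1.97% for R882H against WT under NaCl.

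Tet1 (ENSMUSG00000047146, chr10:62804570-62908996, minus strand) had 32.4, 32.2, 18.1 and 32.2 CPM in WT NaCl 1 to 4 and 58.7, 15.0 and 27.5 CPM in WT azacitidine 1 to 3. It had 38.3, 17.3, 19.8 and 33.4 CPM in R882H NaCl 1 to 4 and 24.001, 30.5, 34.5, 30.8 and 19.5 CPM in R882H azacitidine 1 to 5. The highest and the lowest library of the study were both in the WT azacitidine group. No Tet1 difference exceeded its standard error.

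Tet2 (ENSMUSG00000040943, chr3:133463679-133545139, minus strand), the TET gene of clonal haematopoiesis, had 34.1, 34.2, 20.2 and 34.7 CPM in WT NaCl 1 to 4 and 58.7, 23.1 and 42.5 CPM in WT azacitidine 1 to 3. It had 32.2, 25.3, 21.6 and 40.3 CPM in R882H NaCl 1 to 4 and 30.1, 42.7, 38.8, 39.1 and 25.5 CPM in R882H azacitidine 1 to 5. The ranges of all groups overlapped. The azacitidine response was 0.43 in WT (log2, SE 0.30, interval -0.20 to 1.06, edgeR adjusted p = 0.879), and 0.33 averaged over genotypes (SE 0.20, interval -0.09 to 0.75, adjusted p = 0.880). Without WT azacitidine 1 these were 0.09 and 0.17. The WT response was 0.71 without WT azacitidine 2 and 0.27 without WT NaCl 3. Its exons share 43 bases with Gm42567 on the opposite strand, which reached at most 0.235 CPM.

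Tet3 (ENSMUSG00000034832, chr6:83362373-83459084, minus strand) had 35.4, 48.9, 19.2 and 37.7 CPM in WT NaCl 1 to 4. WT azacitidine 1 to 3 had 153, 38.1 and 39.4 CPM. R882H NaCl 1 to 4 had 48.9, 41.7, 23.1 and 22.6 CPM, and R882H azacitidine 1 to 5 had 25.3, 26.5, 25.3, 37.0 and 29.8 CPM. WT azacitidine 1 stood far above the next highest library, at 48.9 CPM, and the other 2 WT azacitidine libraries lay inside the WT NaCl range and above all 5 R882H azacitidine libraries. The edgeR difference was 1.12 for azacitidine in WT (log2, SE 0.43, interval 0.20 to 2.04, adjusted p = 0.825) and 0.13 without WT azacitidine 1. It was -1.36 for the difference between responses (SE 0.58, interval -2.59 to -0.14, adjusted p = 0.763) and -0.38 without that library. It was -1.41 for R882H against WT under azacitidine (SE 0.41, interval -2.28 to -0.55, adjusted p = 0.533) and -0.43 without it. The effect averaged over genotypes was 0.44 (SE 0.29, adjusted p = 0.933) and turned to -0.05 without it.

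The remaining differences, all smaller than their standard errors, ran from -0.24 to 0.24 (log2) for azacitidine in R882H (8 genes) and from -0.31 to 0.23 for azacitidine in WT (5 genes). They ran from -0.20 to -0.02 for the difference between responses (4 genes), from -0.16 to 0.05 for R882H against WT under NaCl (7 genes) and from -0.28 to 0.21 under azacitidine (6 genes). A p above the threshold does not show that the levels were equal, and the intervals were widest for Tet3, followed by Tet1, in all 6 comparisons. The median member difference was 0.12 for azacitidine in R882H against -0.04 over all tested genes, and -0.08 against 0.03 for R882H against WT under NaCl.

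**Figure D3:**
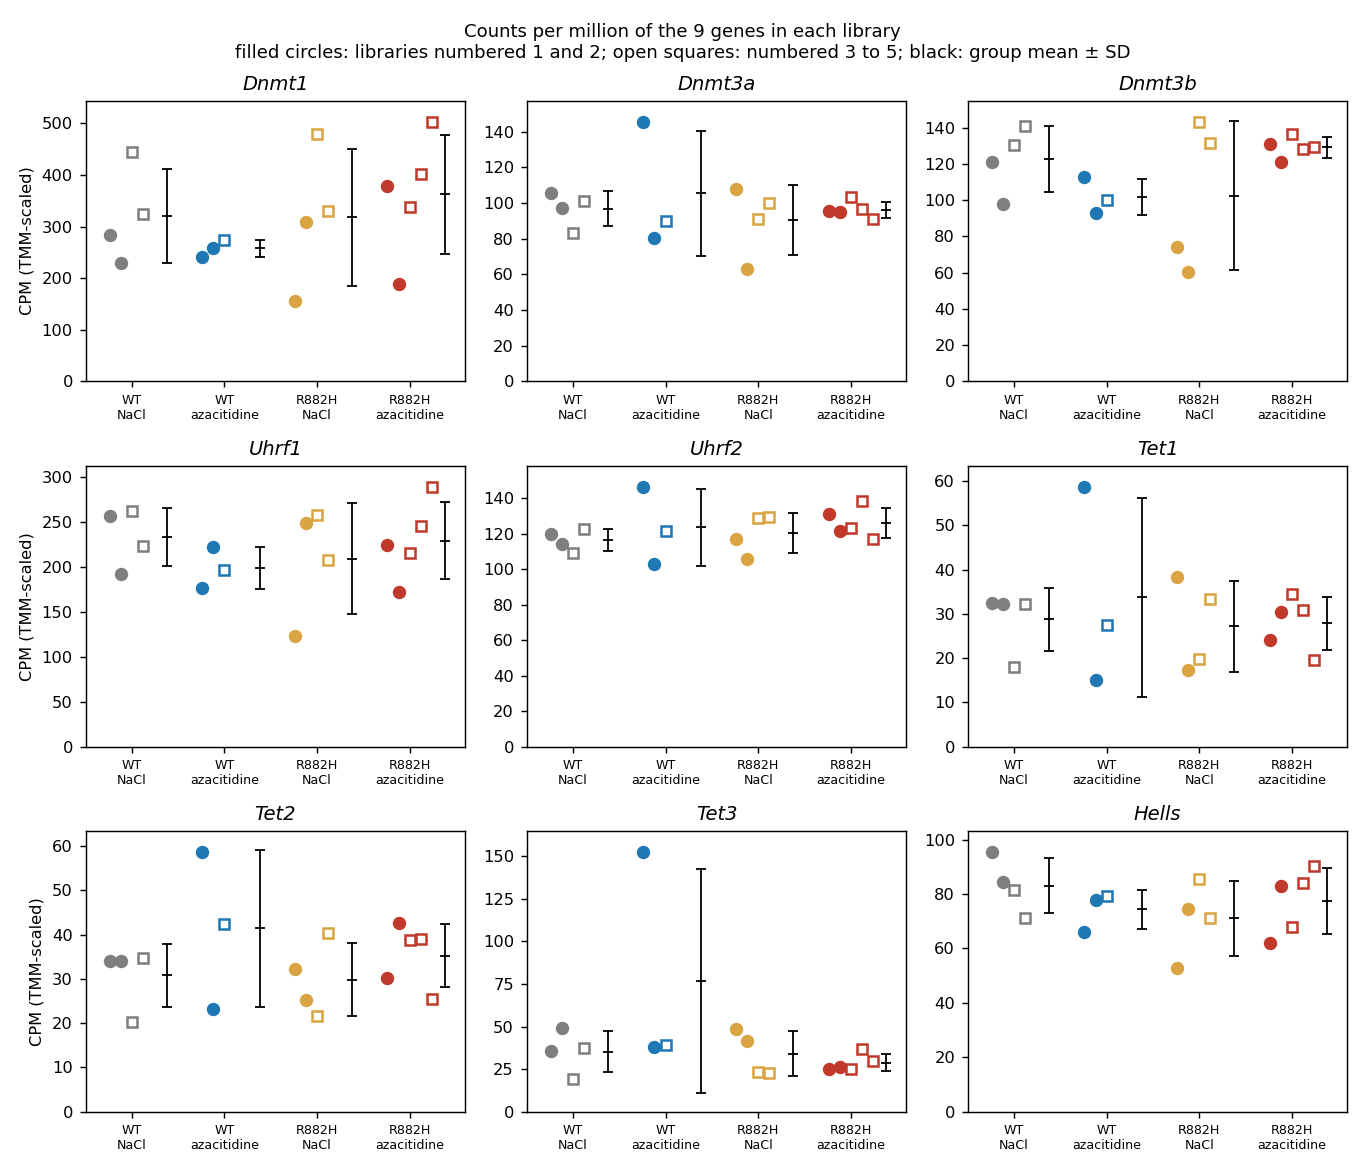
CPM of each gene in each library by group, with filled circles for libraries numbered 1 and 2, open squares for those numbered 3 to 5, and the group mean ± SD in black. WT azacitidine 1 is the highest library for 5 genes (Tet3 at 153 CPM), and for Dnmt3b the R882H NaCl libraries split into 60.3 and 74.3 against 131 and 143 CPM.

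WT azacitidine 1 was the highest of the 16 libraries for 5 of the 9 genes: Dnmt3a, Uhrf2, Tet1, Tet2 and Tet3. Dnmt3a, Tet1, Tet2 and Tet3 have exon lengths of 15457 to 16870 bases, and Uhrf2 has 8590. Genes of 10 kb or more were raised in that library by a median of 0.38. Repeat families took 10.1% of its counts, against at most 6.81% in any other library. The summed S phase CPM was lowest there at 3065, close to the 3118 of R882H NaCl 1. The part of any of these in the values of the 5 genes was not tested. The R882H NaCl libraries 1 and 2 held the lowest values of Dnmt1, Uhrf1 and Hells (library 1) and of Dnmt3a and Dnmt3b (library 2). The 10 erythroid genes summed to 3925 CPM in library 1, 10572 in library 2, 1689 in library 3 and 1698 in library 4, against 1398 to 1768 in R882H azacitidine, 1877 to 2240 in WT NaCl and 1095 to 1622 in WT azacitidine. The 12 T and NK cell genes, none of them at 0 in library 1, had a mean log2 CPM of 5.40 there and at most 2.74 in the other R882H NaCl libraries, 2.43 in R882H azacitidine, 1.82 in WT NaCl and 2.10 in WT azacitidine. Their sum in library 1 (880 CPM) was below that of WT azacitidine 2 (1077 CPM).

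Lists of other cell types also moved with the comparisons, with 0 genes of the lists given here called by edgeR. For azacitidine in R882H, 10 of 10 erythroid genes were lower (median -2.55 on the log2 scale, against -0.04 over all tested genes). All 10 were at an unadjusted p under 0.05. For R882H against WT under NaCl, 10 of 10 were higher (median 1.57, against 0.03), 6 of them at that p. The shares of all tested genes at that p were 6.69% and 5.59%. The mean log2 CPM of the erythroid genes was 7.12 and 7.34 in R882H NaCl 1 and 2. It was 3.47 and 4.06 in R882H NaCl 3 and 4, within the 3.17 to 4.65 of R882H azacitidine. WT NaCl had 3.92 to 5.66. For azacitidine in WT, 12 of 12 neutrophil and monocyte genes were higher (median 1.199, against 0.01), 4 of them at that p. The share of all tested genes there was 6.02%. The mean log2 CPM of these 12 genes was 5.46 to 6.04 in WT azacitidine against 4.03 to 5.08 in WT NaCl. Their summed CPM was 1775 to 9709 against 1573 to 3651, with overlap. All 9 B and plasma cell genes were lower for azacitidine in WT (median -0.52) and higher in R882H than in WT under azacitidine (median 0.84). In both comparisons 0 of them were at that p. Their sums ran from 952 to 25877 CPM in WT azacitidine, 2953 to 43719 in WT NaCl and 16426 to 48168 in R882H azacitidine. These ranges overlapped. The 12 LSK identity genes were all higher in R882H than in WT under azacitidine (median 0.45, against -0.02), 0 of them at that p. The part of these transcripts in the values of the 9 genes was not tested.

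Within the NaCl groups, Dnmt1, Dnmt3b and Tet3 differed by library number. An earlier analysis of these data had seen libraries numbered 1 and 2 stand apart, and the meaning of the numbers is not given in the labels. In the 8 NaCl libraries, Dnmt1 was lower in numbers 1 and 2 (155 to 309 CPM) than in numbers 3 and 4 (325 to 480 CPM) with no overlap in either genotype, a mean log2 difference of -0.72. Dnmt3b was also lower, 60.3 to 121 against 130 to 143 CPM with no overlap, a difference of -0.68. Tet3 was higher, 35.4 to 48.9 against 19.2 to 37.7 CPM, a difference of 0.80, with overlap in WT and none in R882H. Cell type markers split by number too. In the NaCl libraries numbered 1 and 2, against those numbered 3 and 4, the 12 LSK identity genes summed to 1963 to 3430 CPM against 5022 to 5340. The erythroid genes summed to 2122 to 10572 CPM against 1689 to 1985, and the neutrophil and monocyte genes to 2149 to 4865 against 1551 to 1796. None of these 3 sums overlapped between the number sets. By mean log2 CPM the LSK identity and erythroid genes did not overlap either, but the neutrophil and monocyte genes did. They were at 4.03 to 5.67 against 2.40 to 5.08. In WT NaCl they were lower in numbers 1 and 2 by that measure, 4.03 and 4.75 against 4.89 and 5.08. The part of these marker genes in the member differences was not tested. Among the other members, Uhrf1 differed by -0.27, Tet1 by 0.21, Tet2 by 0.16, Uhrf2 by -0.10, Hells by -0.04 and Dnmt3a by -0.03. In R882H azacitidine, the Dnmt1 difference was -0.61 and those of Dnmt3b and Tet3 were -0.06 and -0.23. In WT azacitidine, with 1 library numbered 3, they were -0.13 for Dnmt1, 0.03 for Dnmt3b and 0.95 for Tet3. These are descriptions with no test, and the number of each library cannot be told apart from whatever it stands for. How many of all tested genes split by number in this way was not counted. The splits are thus not shown to be particular to these members.

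Some members rose and fell together from library to library. Of 36 pairs over 16 libraries, 8 passed a Benjamini-Hochberg adjustment of the permutation p of Pearson's r, and 3 passed by Spearman's rho as well. The share of all gene pairs that would pass was not counted, so these relations are not shown to be particular to the members. The permutations shuffled all 16 libraries freely, without regard to group or number set. Dnmt1 and Uhrf1 had r = 0.88 (p = 1e-05, the smallest that 100000 permutations can give, adjusted 0.00018) and rho = 0.84 (p = 9e-05, adjusted 0.00162). Without the 2 libraries farthest from the median of Dnmt1, r was 0.78, and it was 0.87 among numbers 1 and 2 and 0.97 among numbers 3 and above (8 libraries each). Dnmt3a and Tet1 had r = 0.88 (p = 1e-05, adjusted 0.00018) and rho = 0.95 (p = 1e-05, adjusted 0.00036), with r = 0.91 without the 2 farthest libraries and 0.92 and 0.88 in the number sets. Tet1 and Tet2 had r = 0.88 (p = 3e-05, adjusted 0.00036) and rho = 0.67 (p = 0.00538, adjusted 0.0277), with r = 0.81 without the 2 farthest and 0.90 and 0.92 in the sets. With each library taken relative to its group mean, the r of the 3 pairs was 0.89, 0.89 and 0.93.

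The other 5 pairs that passed by Pearson's r alone were Dnmt3a with Uhrf2 (0.74) and Tet2 (0.71), Uhrf1 with Hells (0.68), and Uhrf2 with Tet1 (0.69) and Tet2 (0.67). Without the 2 farthest libraries their r was 0.50, 0.61, 0.56, 0.40 and 0.45 in that order. Every pair among Dnmt3a, Tet1, Tet2 and Uhrf2 was thus past the threshold by r, and Uhrf1 was paired with Dnmt1 and Hells, while Dnmt1 and Hells had r = 0.42 (adjusted p = 0.182, permutation test). Dnmt3b stood with neither by this measure: its r was 0.56 with Dnmt1 (adjusted p = 0.075, permutation test) and 0.40 with Dnmt3a (adjusted p = 0.21, permutation test). By rho, however, Dnmt3b passed with Dnmt1 (0.70, adjusted p = 0.0277, permutation test). It also ran against Tet3 by rho (-0.75, adjusted p = 0.0149, permutation test) while r was -0.40 (adjusted p = 0.201). Dnmt1 with Tet3 (-0.69) and Uhrf1 with Tet2 (-0.67) likewise passed by rho only (adjusted p = 0.0277 each, permutation test).

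**Figure D4:**
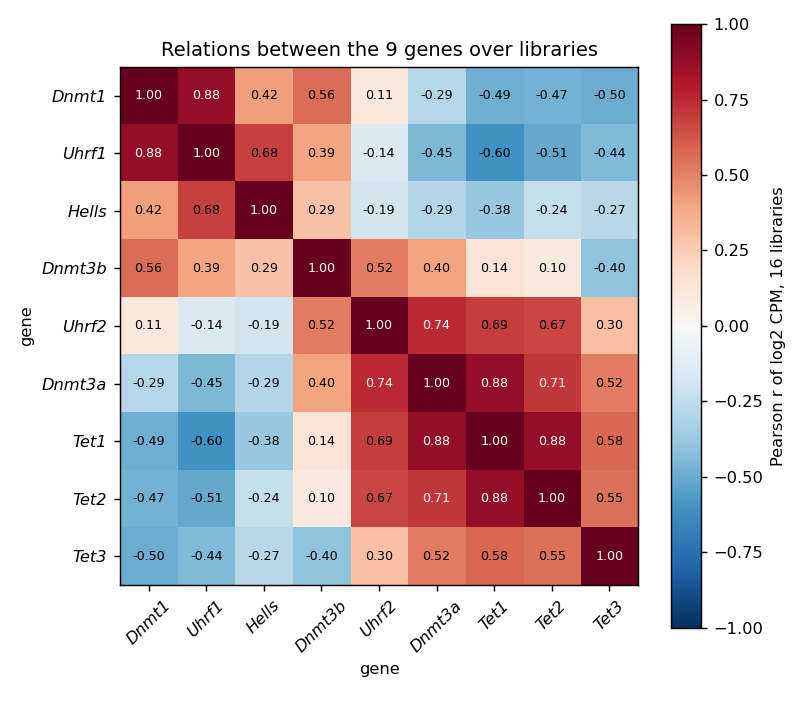
Pearson's r between the log2 CPM of each pair of the 9 genes over 16 libraries, in colour from -1 to 1 and in figures. High values lie between Dnmt1 and Uhrf1 (0.88) and among Dnmt3a, Tet1, Tet2 and Uhrf2 (0.67 to 0.88).

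**Figure D5:**
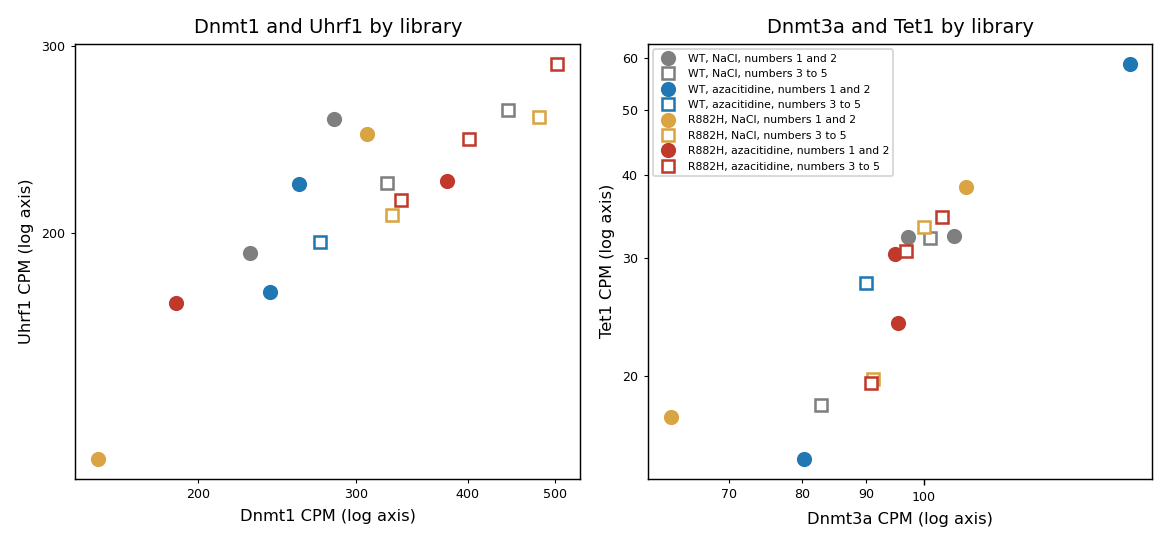
Dnmt1 against Uhrf1 and Dnmt3a against Tet1 in CPM on log axes, 1 point per library, coloured by group and filled for numbers 1 and 2. Libraries of all 4 groups lie along both relations (r = 0.88 each), with R882H NaCl 1 lowest in the first and WT azacitidine 1 highest in the second.

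Since DNMT1, UHRF1 and HELLS act at replication, the members were set against the mean log2 CPM of 25 S phase genes (9 relations), none of them a member. Hells (r = 0.67, adjusted p = 0.0196; rho = 0.70, adjusted p = 0.0307, permutation tests) and Uhrf1 (r = 0.64, adjusted p = 0.0196; rho = 0.59, adjusted p = 0.0477, permutation tests) rose with it. Their raw permutation p-values for r were 0.00494 and 0.00873, and without the 2 farthest libraries r was 0.53 and 0.62. Tet1 (r = -0.64, rho = -0.58) and Uhrf2 (r = -0.58, rho = -0.62) fell with it, with adjusted permutation p of 0.0196 and 0.0305 for r and 0.0477 for each rho. Without the 2 farthest libraries these r were -0.49 and -0.43. Among numbers 1 and 2 and among numbers 3 and above, r was 0.70 and 0.70 for Hells and 0.74 and 0.72 for Uhrf1. It was -0.69 and -0.53 for Tet1, and -0.70 and only -0.16 for Uhrf2. Dnmt3a passed by r only (-0.77), and r was -0.32 without 2 libraries, so that relation rests on them. Dnmt1 did not pass over the 16 libraries (r = 0.31, adjusted p = 0.282, permutation test). Its r was 0.40 among numbers 1 and 2 and 0.67 among numbers 3 and above (8 libraries each). The part of the S phase genes in its relation to Uhrf1 was not tested. How many of all tested genes would pass against the S phase mean was not counted.

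The genes most like each member over the 16 libraries, by Pearson's r of log2 CPM among 18341 genes, were Upf1 (0.96), Wiz (0.96) and Supt5 (0.96) for Dnmt1. They were Sart3 (0.97), Usp5 (0.95) and Chaf1a (0.94) for Uhrf1, where Chaf1a is a subunit of the chromatin assembly factor that works at replication forks. For Hells they were Myh7b (0.89), Cdca7 (0.86) and Tedc2 (0.85). Cdca7 encodes the protein that recruits HELLS to chromatin, and it was on the list of partner genes. For Uhrf2 they were Hmbox1 (0.92), Kansl1l (0.90) and Nrip1 (0.88), and for Dnmt3b they were Elmo1 (0.96), Mrgpre (0.96) and Spns2 (0.96). Cpne3 (0.93), 2810410L24Rik (0.91) and Lpgat1 (0.91) were most like Dnmt3a. Pam (0.98), Arid5b (0.94) and Utrn (0.93) were most like Tet1, and Baz2b (0.97), Ankrd11 (0.95) and Gm20696 (0.95) most like Tet2. Huwe1 (0.96), Hectd4 (0.96) and Abl2 (0.95) were most like Tet3. These are descriptions chosen as the highest among all genes.

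The wider DNA methylation machinery gave no called gene in any comparison. Of 51 listed genes in 6 lists (other methyltransferases, maintenance partners, methyl donor supply, TET cofactors, base excision and methyl-CpG readers), 47 were tested, and edgeR called 0. DESeq2 (48 tested) and limma-voom (47 tested) also called 0 in each comparison. At an unadjusted p under 0.05, 0 were higher and 1 was lower for azacitidine in R882H, and 4 were higher and 0 lower for azacitidine in WT. For the difference between responses the counts were 1 higher and 1 lower, for R882H against WT under NaCl 1 higher and 2 lower, and under azacitidine 1 higher and 4 lower. For the averaged effect 2 were higher and 0 lower. With 47 genes, these counts stand beside the shares of 5.59% to 9.34% over all tested genes.

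Among the partner genes named by rule, Cdca7 had 464 CPM on average and was at -0.35 in R882H under NaCl (log2, SE 0.15, edgeR adjusted p = 0.856). Idh2, which makes the 2-oxoglutarate that TET enzymes use, was at -0.39 there (SE 0.17, adjusted p = 0.848), with 302, 315, 426 and 461 CPM in R882H NaCl 1 to 4 against 443 to 587 CPM in WT NaCl. Dnmt3c, a rodent-specific paralogue of Dnmt3b, was at most 5.29 CPM. It had 2.21, 5.29, 0.191 and 0.229 CPM in R882H NaCl 1 to 4, so its difference of 2.25 (SE 0.80, adjusted p = 0.797) came from libraries 1 and 2, where Dnmt3b was lowest. Whether reads were shared between these related genes is not given in the sources used here.

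Mbd6, Mbd5 and the TET partner Ogt, the O-GlcNAc transferase, followed the pattern of Tet3 in WT azacitidine. Mbd6 and Mbd5 were listed with the readers as MBD family genes, and whether they bind methylated DNA was not examined. Mbd6 had 90.6, 33.9 and 34.8 CPM in WT azacitidine 1 to 3 against 21.0 to 35.3 in WT NaCl, a difference of 0.98 (log2, SE 0.34, edgeR adjusted p = 0.825). Mbd5 had 23.8, 7.47 and 7.88 CPM, and Ogt had 632, 263 and 372 CPM, with a difference of 0.67 (SE 0.25, adjusted p = 0.825). In all 3 genes WT azacitidine 1 was the highest library of the group. Zbtb33, a methyl-CpG-binding zinc finger protein, was at 1.01 for azacitidine in WT (SE 0.40, adjusted p = 0.825), with at most 4.77 CPM in any library. Shmt1, an enzyme of folate metabolism, was at 0.78 and Gadd45a, a DNA repair and demethylation cofactor, at -0.81 for the difference between responses (adjusted p = 0.763 each). In R882H NaCl 1 to 4, Shmt1 had 49.1, 61.2, 121 and 113 CPM and Gadd45a had 30.4, 37.7, 13.5 and 15.3 CPM. Libraries 1 and 2 thus stood apart from 3 and 4 in both genes.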

How the data were processed

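RNA from sorted LSK cells was amplified with a SMARTer kit and sequenced. Per the submitters' processing notes the builds are GRCm38 and mm10, and the tools named are HISAT2 2.0.5, featureCounts 1.6.2 and edgeR 3.26.6. Whether strand was used, and how reads with several matches were counted, is not given in the sources used here. The deposited count per gene, with the deposited exon length, was used for every test. The FPKM values deposited by the authors were used only to compare levels between genes. The 9 members and all gene lists were chosen with earlier results of these data known.

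Counts of the 16 libraries were joined by gene ID, genes with low counts were removed (edgeR filterByExpr, 18341 left), and the 4 groups were fitted together in edgeR 4.0.16 (TMM scaling, quasi-likelihood test, Benjamini-Hochberg over all tested genes, threshold 0.05). The SE is the difference over the square root of F. Intervals are 95%, from Student's distribution with the fitted degrees of freedom. Log2 CPM used a prior count of 2. Alternatives were DESeq2 1.42.0, limma 3.58.1 (voom), other scalings, no filter, library number as a block or set, subsets and leaving out each library. Deviations from the group means of same-numbered libraries correlated over 0.1 in all 4 pairs of R882H NaCl with WT NaCl (0.10 to 0.34, over tested genes). Differently numbered pairs within numbers 1 and 2, or within 3 and 4, correlated at 0.26 to 0.31. A pairing by number was thus not clearly set apart from a split into these sets, and the labels give neither. Of these 8 libraries, 6 correlated best with their own number. A total of 25 pairs of libraries within groups were compared, and none agreed within sampling noise (lowest chi-square per gene 42.0). Rule for names: all members, the 3 list genes with the lowest p in each comparison, and the 3 genes most alike to each member. A gene that the rule names is not reported here. Differences larger than their standard error are given singly and the rest as ranges, a choice made after the values were seen, as were the length classes. Positions are from GENCODE vM21. The test script was tested on simulated data.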

Additional observations from a re-analysis of the deposited data

Results flagged for a closer look

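In WT NaCl, library 3 lay far below the other 3 libraries for Tet1, at 18.052 CPM where the others were between 32.2 and 32.4, and for Tet2, at 20.205 CPM where the others were between 34.1 and 34.7. The gap to the nearest library, as a share of the range of the group, exceeded Dixon's critical value in both. Of 27 sets of values tested (the 9 genes in the groups of 4 or 5 libraries), 2 were beyond it, and chance gives about 1 in 20. Library 3 also had the most B and plasma cell transcripts of its group: the 9 genes summed to 43719 CPM against 2953 to 7412 in the other WT NaCl libraries, and immunoglobulin genes took 5.46% of its gene counts against 0.459% to 1.02%. Their part in these values was not tested. The Tet3 value of that library was also the lowest of the study, at 19.2 CPM. The spike of Tet3 in WT azacitidine 1 lies in a group of 3, which was not examined this way.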

How the results depend on the processing

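Counts of all called genes moved with the method. Those within the number sets rest on few libraries, with 2 of each group in numbers 1 and 2. Numbers 3 and above hold only 1 WT azacitidine library. Counts for comparisons that use that group are thus not given for numbers 3 and above. For azacitidine in R882H (1 gene by edgeR) the count was 96 with DESeq2, 53 and 233 within libraries numbered 1 and 2 or 3 and above, 2 with the number set as a term, and 0 without a filter, with only its groups, or without both R882H NaCl 1 and WT azacitidine 1. For azacitidine in WT (0) it was 55 with DESeq2. For the difference between responses (0) it was 16 with DESeq2 and 4 in numbers 1 and 2. For R882H against WT under NaCl (1) it was 35 with DESeq2, 2 with the number set as a term and 2 in numbers 3 and above, and 0 without a filter, with only its groups, or without both libraries. For R882H against WT under azacitidine (1) it was 20 with DESeq2 and 9 in numbers 1 and 2. It was 0 with limma-voom, without a filter, with the number set as a term, with only its groups, or without both libraries. For the averaged effect (4) it was 166 with DESeq2, 14 with the number set as a term, and 0 and 860 within the number sets. Leaving out single libraries gave 0 to 1 genes for azacitidine in R882H, 0 to 7 for azacitidine in WT (7 without WT azacitidine 3), 0 to 1 for each comparison of genotypes, and 2 to 46 for the averaged effect (46 without WT azacitidine 3).

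With library number as a replicate block the count was 0 for azacitidine in R882H and 0 for R882H against WT under azacitidine, and within 1.5 times of the reported count elsewhere. For R882H against WT under NaCl, where all 4 same-numbered pairs correlated over 0.1, it was 1 in the fit of all libraries. It was 0 in a fit of the 8 NaCl libraries with the same replicate block, an alternative chosen after seeing the data. The block changed no other call, and in that fit Dnmt3b was at -0.34 and Hells at -0.23. In the other 3 comparisons between pairs of groups, 1 of 4, 1 of 3 and 0 of 3 same-numbered pairs correlated over 0.1. There 1 of 8, 2 of 6 and 1 of 6 libraries correlated best with their own number (azacitidine in R882H, azacitidine in WT, genotypes under azacitidine).

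No member crossed the threshold in any of the 1449 fits over 54 results. The fit closest to it was Dnmt3b for the averaged effect in numbers 3 and above, where WT azacitidine held 1 library. The sign changed in 111 fits, 106 of them for differences within their standard error. The other 5 were, among libraries numbered 3 and above, Dnmt3b for azacitidine in R882H (-0.080) and for R882H against WT under NaCl (0.023), and Hells for the difference between responses (-0.020) and for R882H against WT under NaCl (0.048), and Tet3 for the averaged effect, which ran over -0.055 (without WT azacitidine 1) to 0.60 when single libraries were left out. The cause was not tested. None of the 36 group levels moved by more than 1 SD when FPKM was replaced by TMM-scaled CPM per kilobase. Both measures use the same exon lengths, so this does not check the lengths.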
